A study of Arabidopsis thaliana with 4 samples.

Results

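The 12S cruciferins and the vicilin-type cupins are the storage globulins of the Arabidopsis seed, and their transcripts were lower in every ndx1-4 seedling library than in any Col-0 library. The genes were selected by a fixed set of 8 identifiers, drawn up after FPKM of storage globulin genes had already been seen to differ between the genotypes. Of these 8 genes, 7 were among the 1984 genes of the deposited table. They are CRA1 (AT5G44120), CRU2 (AT1G03880), CRU3 (AT4G28520) and AT1G03890, which are cruciferins, and PAP85 (AT3G22640), AT4G36700 and AT2G28490, which are vicilin-type. AT2G18540, also vicilin-type, was not in the table and its level was not analysed here. The globulin levels that follow are therefore a description of the values on which they were selected, and no test is given for them.

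The libraries were mRNA-seq libraries of whole seedlings aged 10 days. The ndx1-4 mutant carries a T-DNA insertion (WiscDsLox344A04) in NODULIN HOMEOBOX, abbreviated NDX, in the Col-0 background, and the Col-0 wild type served as its control. Each genotype had 2 libraries of single-end reads of 50 bases. The study describes the replicates as independent biological ones. How many seedlings entered a library is not given in the sources used here. Values are FPKM, fragment counts divided by transcript length and by the fragments sequenced per library, so that levels can be set side by side between genes. The table holds only genes that the authors called between the genotypes, and read depth per library is unknown. NDX itself (AT4G03090) measured 0.98 and 1.00 FPKM in ndx1-4 libraries, against 5.08 and 4.96 FPKM in Col-0 libraries. In whole seedlings, fewer cells making a transcript and less transcript per cell cannot be told apart.

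Cruciferins are made in the maturing embryo, cut by vacuolar processing enzymes into an acidic and a basic chain, and packed as hexamers into protein storage vacuoles. Vicilins are the related 7S globulins. Both are broken down after germination to feed the growing seedling. In the embryo their genes are switched on by the B3-domain proteins ABI3, FUS3 and LEC2 together with LEC1-type NF-Y and bZIP factors, and the B3 proteins bind the RY element. In vegetative tissue these genes are held off by VAL proteins and by Polycomb complexes, and NDX has been reported to interact with VAL1 and the Polycomb proteins RING1A and RING1B.

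The genes lie on all 5 chromosomes (TAIR10 coordinates). CRA1 lies on chromosome 5 (17756238 to 17758336, minus strand) and CRU3 on chromosome 4 (14087556 to 14089796, plus strand). CRU2 (chromosome 1, 985751 to 988146, plus strand) and AT1G03890 (chromosome 1, 989198 to 991020, plus strand) stand in tandem with 1052 bases between them. PAP85 lies on chromosome 3 (8011724 to 8013941, minus strand), AT4G36700 on chromosome 4 (17298200 to 17300367, minus strand) and AT2G28490 on chromosome 2 (12178597 to 12181012, minus strand). The 4 cruciferin genes and AT4G36700 have 4 exons, and PAP85 and AT2G28490 have 5. The encoded proteins are 451 to 524 residues long.

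The 4 cruciferins form a close family at the protein level. CRA1 and CRU2 were identical at 75.8% of aligned residues, CRA1 and CRU3 at 60.2%, and AT1G03890 and each of the other 3 at 49.1% to 49.3%. A cruciferin and a listed vicilin-type protein shared 20.6% to 30.5%. The residue pattern asparagine, glycine, any residue, glutamate, glutamate, which holds the asparagine-glycine bond cut by vacuolar processing enzyme in 12S globulins, was found in all 4 cruciferins. It began at residue 282 in CRA1, 269 in CRU2, 333 in CRU3 and 270 in AT1G03890. None of the 4 vicilin-type proteins held it, and 0.769% of all 27444 predicted proteins did. At the transcript level, no stretch of 50 bases, the length of a read, was shared between any of the 7 genes and another annotated gene on the nuclear chromosomes, so that an error-free read has a single gene of origin even in the tandem pair. A single transcript per gene, the one with the longest coding sequence, entered this comparison. The reads were not taken to record strand, and the annotated gene nearest to any of the 7 lies 86 bases away, beside AT1G03890.

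The 190 bases before the annotated start of 5 of the genes are printed to show the elements known to bind regulators of seed genes. They are read on the gene's strand, 5′ to 3′, from the RefSeq TAIR10.1 assembly, in which the nuclear gene coordinates equal those of the files. Capitals mark the RY core CATGCA and the abscisic acid response element (ABRE) core ACGTG, either strand, including the G-box CACGTG, which contains the ABRE core on both strands. CRA1 is the most abundant of the genes, CRU2 the one without any RY core, CRU3 has both elements, PAP85 has overlapping RY cores and AT4G36700 an RY core with a pair of G-boxes. The windows are chr5:17758337-17758526 (minus strand) for CRA1, chr1:985561-985750 (plus strand) for CRU2, chr4:14087366-14087555 (plus strand) for CRU3, chr3:8013942-8014131 (minus strand) for PAP85 and chr4:17300368-17300557 (minus strand) for AT4G36700.
CRA1: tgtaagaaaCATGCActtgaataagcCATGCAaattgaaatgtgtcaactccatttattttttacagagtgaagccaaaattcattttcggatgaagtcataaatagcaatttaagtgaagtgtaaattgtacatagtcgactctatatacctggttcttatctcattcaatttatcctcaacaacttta
CRU2: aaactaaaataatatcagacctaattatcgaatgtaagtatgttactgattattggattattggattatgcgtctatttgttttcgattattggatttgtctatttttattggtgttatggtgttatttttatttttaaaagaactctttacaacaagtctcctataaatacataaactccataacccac
CRU3: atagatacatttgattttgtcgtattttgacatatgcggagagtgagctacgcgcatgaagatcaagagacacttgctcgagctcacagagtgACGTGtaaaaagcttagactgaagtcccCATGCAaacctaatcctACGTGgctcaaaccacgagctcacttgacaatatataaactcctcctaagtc
PAP85: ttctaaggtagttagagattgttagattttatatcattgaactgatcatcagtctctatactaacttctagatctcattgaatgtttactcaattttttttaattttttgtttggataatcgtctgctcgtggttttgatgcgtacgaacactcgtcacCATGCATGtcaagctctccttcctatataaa
AT4G36700: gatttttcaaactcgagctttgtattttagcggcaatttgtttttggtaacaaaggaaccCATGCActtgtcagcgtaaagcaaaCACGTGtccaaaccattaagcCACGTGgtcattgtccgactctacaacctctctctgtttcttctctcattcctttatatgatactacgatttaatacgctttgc

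The RY core was present within 250 bases before the start of 6 of the 7 listed globulin genes and before 8.43% of all 27443 protein-coding genes with such a window. Among the protein-coding genes of the deposited table the share was 11.4%. It began 181 and 164 bases before the start in CRA1, 69 in CRU3 and 129 in AT1G03890. In the vicilin-type genes it began 130 bases before the start in AT4G36700, at 31 and 29 in PAP85, and at 80, 32 and 30 in AT2G28490. The ABRE core was present in 3 of the 7 genes, CRU3, AT4G36700 and AT2G28490, against 22.9% of all promoters. AT4G36700 and AT2G28490 also held the G-box, which 6.49% of all promoters held. CRU2 held neither element. It held the prolamin box core TGTAAAG on the minus strand, 44 bases before the start, as did 4.53% of all promoters, and a TATA box TATAAA 27 bases before it, which 47.4% of all promoters held. In AT2G18540, which was not in the table, the window held 3 G-boxes and no RY core. The matches are a description of letters in these windows.

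**Figure D1:**
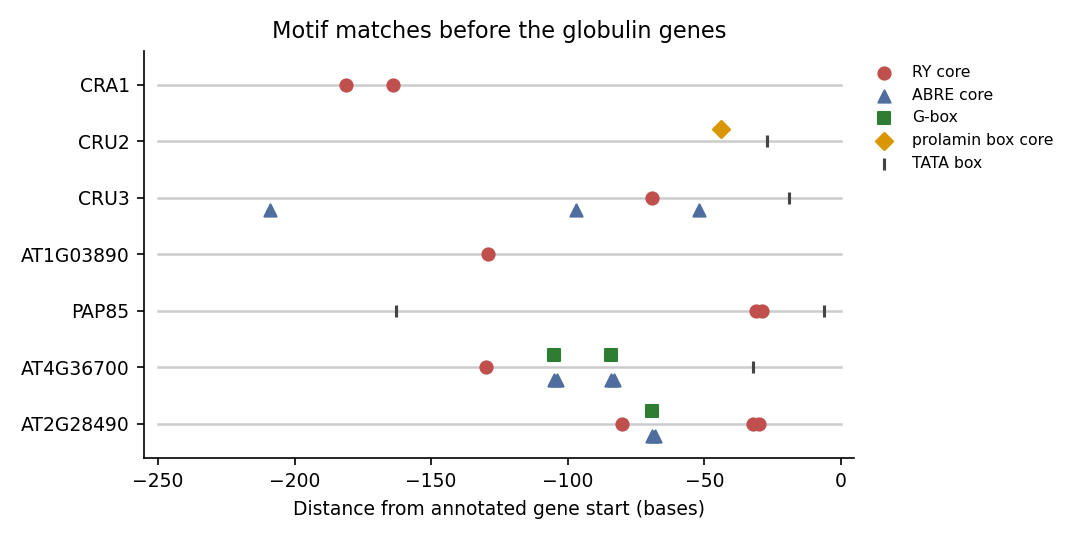
Positions of motif matches (either strand) in the 250 bases before the annotated start of each of the 7 listed globulin genes; the horizontal axis is the distance from the start in bases, and each marker is a match. RY cores (circles) are present in 6 genes, and CRU2 holds only a prolamin box core and a TATA box.

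In ndx1-4 the 7 genes summed to 53.6 and 46.2 FPKM, against 619 and 647 FPKM in Col-0. The mean sum was 49.9 ± 5.21 FPKM in ndx1-4 and 633 ± 19.5 FPKM in Col-0 (SD, n = 2 each), a 12.7-fold lower level. The cruciferin sum was 13.2-fold lower and the vicilin-type sum 6.70-fold lower. All 7 genes had both ndx1-4 values under both Col-0 values, as did 56.5% of the 1984 listed genes. A mean FPKM at least 8-fold lower in ndx1-4 was found in 6 of the 7 globulin genes and in 4.64% of the listed genes. Since the globulin genes were selected on this contrast, nothing is read from these counts.

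CRA1, cruciferin A, was the most abundant globulin transcript in both genotypes. It measured 35.86 and 31.65 FPKM in ndx1-4, against 303.45 and 315.98 FPKM in Col-0. The ndx1-4 mean of 33.8 ± 2.98 FPKM was 10.9% of the Col-0 mean of 310 ± 8.86 FPKM (SD, n = 2 each). CRA1 thus remained well measured in the mutant at a level 9.18-fold lower.

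CRU3, cruciferin C, came next in both genotypes. It measured 12.84 and 10.86 FPKM in ndx1-4, against 212.88 and 222.75 FPKM in Col-0. The mutant thus held 5.44% of the Col-0 mean, an 18.4-fold lower level. The ratio of CRA1 to CRU3 was 2.85 in ndx1-4 and 1.42 in Col-0.

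CRU2, cruciferin B, differed most of the genes with a level above 0 in both genotypes. It measured 0.06 FPKM in both ndx1-4 libraries, against 70.28 and 74.72 FPKM in Col-0. On average 0.0828% of the Col-0 level was measured in the mutant, 1208-fold lower, and the rounding of FPKM to 0.01 alone allows 1115-fold to 1318-fold. Counting error at 0.06 FPKM comes on top of this range and is not given, since read depth is unknown. No other of the 1936 listed genes with both means above 0 had a lower ratio of ndx1-4 to Col-0. CRA1, the closest relative of CRU2 in protein sequence, was 563 times as abundant as CRU2 in ndx1-4 and 4.27 times in Col-0.

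AT1G03890, the tandem neighbour of CRU2 and the least abundant cruciferin, was listed at 0 in both ndx1-4 libraries. In Col-0 it measured 3.73 and 5.61 FPKM, a replicate difference of 50.4% that exceeded the 2.89% to 6.32% of the other 6 genes. In all, 18 listed genes were at 0 in both ndx1-4 libraries and above 0 in both Col-0 libraries. No fold change is given for a gene listed at 0.

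**Figure D2:**
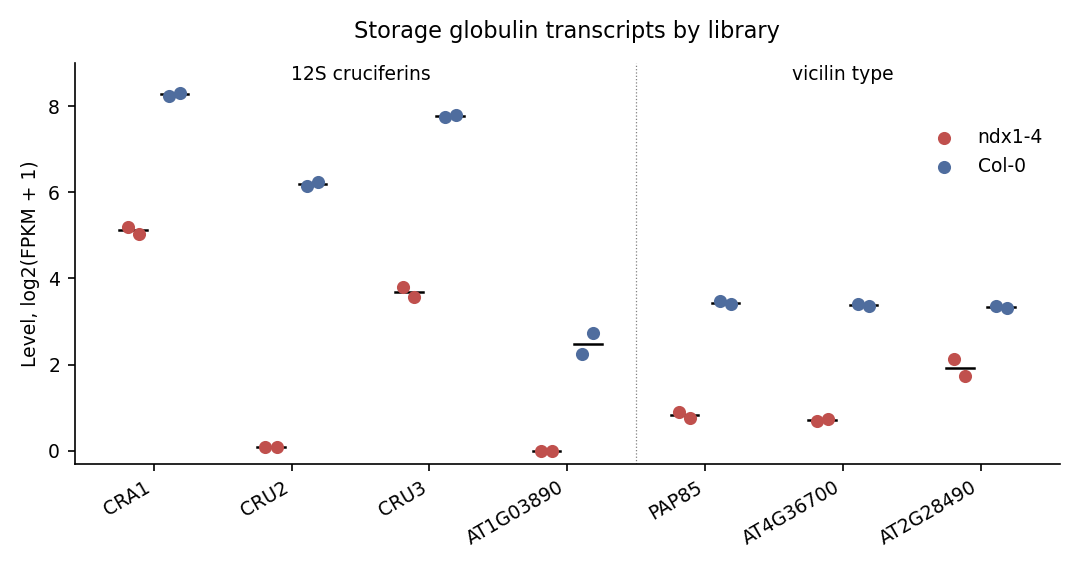
Level of each listed globulin gene in each library, on a log2(FPKM + 1) axis; red points are the 2 ndx1-4 libraries, blue points the 2 Col-0 libraries, and black bars the means. The genotypes do not overlap for any gene, and CRU2 and AT1G03890 lie at or next to 0 in ndx1-4.

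The 3 listed vicilin-type genes had different levels in ndx1-4 and nearly the same level in Col-0. PAP85, a vicilin of the embryo, measured 0.85 and 0.68 FPKM in ndx1-4, against 10.07 and 9.63 FPKM in Col-0, and was 12.9-fold lower. AT4G36700 measured 0.62 and 0.66 FPKM in ndx1-4, against 9.67 and 9.27 FPKM in Col-0, and was 14.8-fold lower. The ndx1-4 means of these 2 genes, 0.765 and 0.64 FPKM, differed by less than the gap between the PAP85 replicates, and in Col-0 their values overlapped.

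AT2G28490 kept the largest share of its Col-0 level of the 7 genes. It measured 3.37 and 2.32 FPKM in ndx1-4, against 9.27 and 9.01 FPKM in Col-0. The mutant held 31.1% of the Col-0 mean, 3.21-fold lower, and between single libraries the difference ranged from 2.67-fold to 4.00-fold. Its replicates in ndx1-4 differed by 45.3%, the widest gap in the mutant among the 6 genes above 0. AT2G28490 was 3.72 times as abundant as PAP85 in ndx1-4 and 0.928 times in Col-0.

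The order of the levels therefore differed between the genotypes. In ndx1-4 it ran CRA1, CRU3, AT2G28490, PAP85, AT4G36700, CRU2 and AT1G03890, and the ranges of neighbouring genes did not overlap, except that the upper value of AT4G36700 (0.66 FPKM) came close to the lower value of PAP85 (0.68 FPKM). In Col-0 it ran CRA1, CRU3, CRU2, PAP85, AT4G36700, AT2G28490 and AT1G03890. There PAP85 and AT4G36700 overlapped, AT4G36700 and AT2G28490 met at 9.27 FPKM, and the other neighbours were separate. Over the 6 genes above 0 in ndx1-4 the log2 ratio of ndx1-4 to Col-0 had a median of -3.79 and an SD of 2.96. This SD came mostly from CRU2, at -10.24, since the others lay between -4.2 and -1.68. The pooled SD between replicates was 0.147 on the log2 scale. CRU2 added no ndx1-4 spread to it, because both ndx1-4 values of CRU2 were listed at 0.06 FPKM. The median log2 ratio over the 1936 listed genes with both means above 0 was -0.20.

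**Figure D3:**
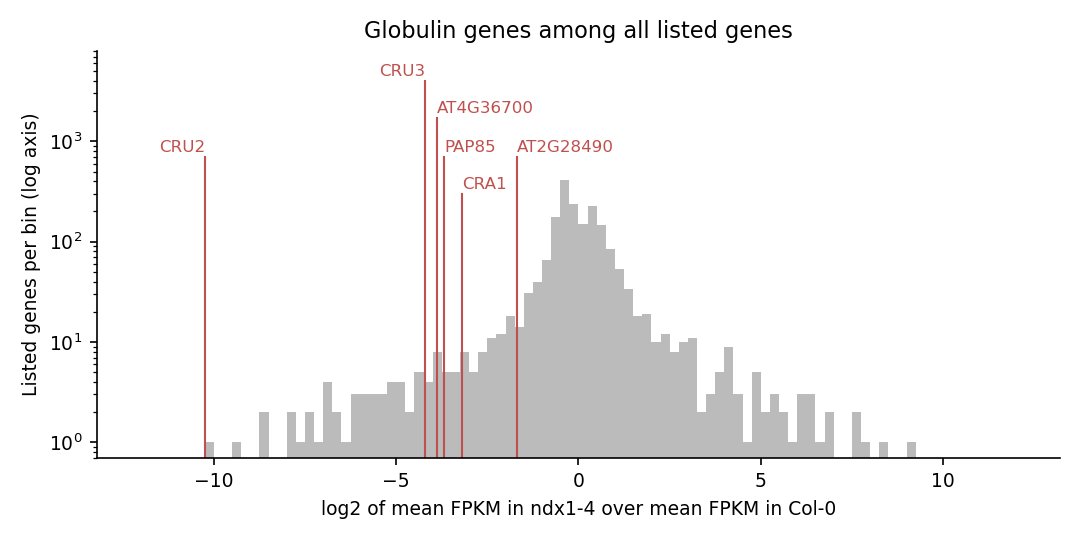
Histogram of the log2 ratio of mean FPKM in ndx1-4 over Col-0 for the 1936 listed genes with both means above 0 (grey bars, log count axis), with 6 globulin genes as red lines; AT1G03890 is absent because it is listed at 0 in ndx1-4. CRU2 lies at -10.24, the lowest of all, and the other 5 between -4.20 and -1.68.

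The make-up of the globulin pool changed with its size. CRA1 took 66.9% and 68.5% of the summed FPKM in ndx1-4, against 49.0% and 48.8% in Col-0. CRU2 took 0.112% and 0.130% in ndx1-4, against 11.4% and 11.6% in Col-0, and CRU3 took 24.0% and 23.5% in ndx1-4, against 34.4% in both Col-0 libraries. The share of AT2G28490 was 6.29% and 5.02% in ndx1-4, against 1.497% and 1.39% in Col-0. For these 4 genes the shares did not overlap between the genotypes. PAP85 kept a similar share, at 1.59% and 1.47% in ndx1-4 and 1.63% and 1.49% in Col-0, where the genotypes overlapped. AT4G36700 took 1.16% and 1.43% in ndx1-4, against 1.56% and 1.43% in Col-0, so that replicate 2 had nearly the same share in both.

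**Figure D4:**
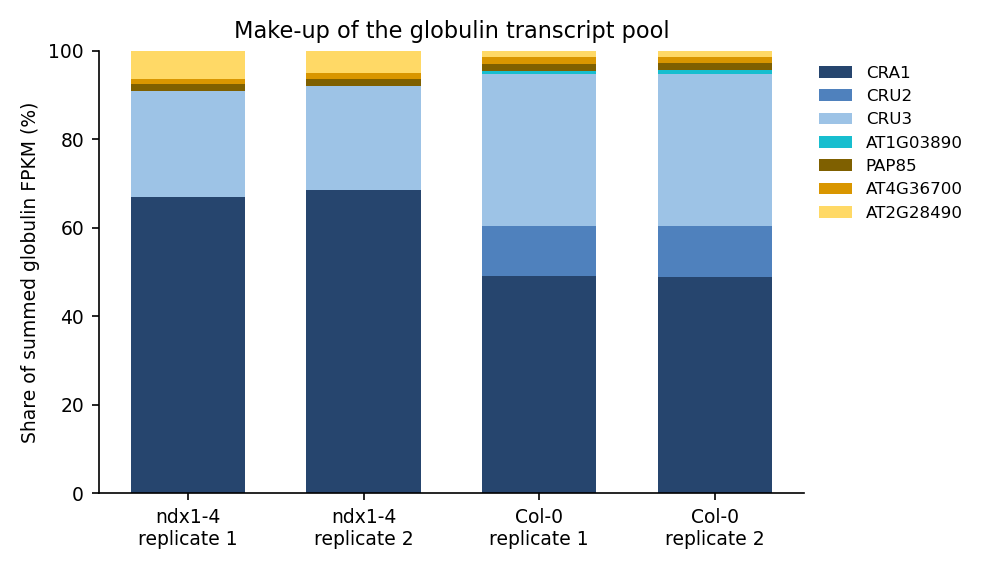
Share of each gene in the summed FPKM of the 7 listed globulin genes (percent), 1 bar per library with ndx1-4 on the left. CRA1 fills 66.9% and 68.5% of the ndx1-4 bars and 49.0% and 48.8% of the Col-0 bars, and the CRU2 segment of the Col-0 bars is too thin to see in ndx1-4.

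Outside the rule, a protein search with the globulins found 2 further cupin proteins of the same family, AT1G07750 and AT2G28680, each of 356 residues and 24.9% to 30.8% identical to the globulins. AT2G28680 was not in the table and was not analysed here. AT1G07750 was slightly higher in ndx1-4, at 41.96 and 46.07 FPKM in ndx1-4 and 37.38 and 33.86 FPKM in Col-0. On the log2(FPKM + 1) scale limma put the difference at 0.30 ± 0.06 (SE; adjusted p 0.00232). The call was lost without the variance trend (limma adjusted p 0.0164) and with adjustment over all annotated genes (0.0446). It was also lost with any 1 library left out. The difference was then 0.364 and 0.232 when ndx1-4 replicates 1 and 2 were dropped in turn, and 0.367 and 0.229 when Col-0 replicates 1 and 2 were.

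The globulins were next set beside the other genes of seed filling and of its control, taken from general knowledge and tested with limma over all 1984 listed genes. At an adjusted p under 0.01, 55.9% of the listed genes were lower and 43.0% higher in ndx1-4. After median-ratio scaling of the libraries these calls numbered 612 lower and 869 higher, against 1110 lower and 853 higher without it. The table holds genes called by the authors on the same libraries, so these p-values repeat an earlier selection and are not independent evidence.

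The listed genes for other stored products of the embryo were lower as well, as were 55.9% of all listed genes by limma. Genes of these lists that were not listed have no value here. Of 5 genes for 2S albumins, the small sulphur-rich storage proteins, 4 were listed and all 4 fell, with a median limma difference of -4.19 beside -0.20 over all listed genes. The 2S albumins summed to 3.83 and 3.33 FPKM in ndx1-4, against 355 and 367 FPKM in Col-0. The sum was 101-fold lower, a larger difference than the 12.7-fold of the globulin sum. SESA3 (AT4G27160) held a mean of 264 of the 361 FPKM in Col-0. By single gene the difference ranged from 19.9-fold lower (SESA2, AT4G27150) to 234-fold lower (SESA3). There were 0.0715 and 0.0720 FPKM of 2S albumin for each FPKM of globulin in ndx1-4, against 0.573 and 0.568 in Col-0. Of 11 genes for oil body proteins, the oleosins, caleosins and a steroleosin that coat lipid droplets, 7 were listed and all 7 fell. OLEO4 (AT3G27660), an oleosin, measured 1.01 and 0.74 FPKM in ndx1-4, against 23.68 and 26.43 FPKM in Col-0. OLEO3 (AT5G51210) and OLEO1 (AT4G25140) were 15.8-fold and 14.5-fold lower. ATPXG2 (AT5G55240), a caleosin, no longer passed once Col-0 replicate 1 was left out (limma adjusted p 0.01).

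Of 13 genes for activators of storage genes, 2 were listed, and both were lower in ndx1-4. FUS3 (AT3G26790), a B3-domain activator that binds the RY element, measured 0.04 and 0 FPKM in ndx1-4, against 1.64 and 1.15 FPKM in Col-0. The difference by limma was -1.22 ± 0.14 (SE) on the log2(FPKM + 1) scale, adjusted p 9.57e-05. The FUS3 call was lost without ndx1-4 replicate 1 (adjusted p 0.0134, limma) or without ndx1-4 replicate 2 (0.0149). NF-YB6 (AT5G47670), known as LEC1-LIKE, a partner subunit of seed bZIP factors, measured 0.06 and 0 FPKM in ndx1-4, against 1.92 and 2.48 FPKM in Col-0. By limma it fell by 1.63 ± 0.13 (SE, adjusted p 1.73e-05) on the same scale. Both activators were at or next to 0 in ndx1-4 and low transcripts in Col-0. ABI3, LEC1, LEC2, ABI4, ABI5 and the other 6 activators of the list were absent from the table used and not analysed here.

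Of 15 genes for repressors of storage genes, 1 was listed. AT3G23060, which encodes BMI1C, a RING-finger protein of Polycomb repressive complex 1, measured 0.86 and 0.84 FPKM in ndx1-4, against 0.03 FPKM in both Col-0 libraries. By limma it rose by 0.84 ± 0.12 (SE) on the log2(FPKM + 1) scale, adjusted p 0.000273. VAL1, RING1A and RING1B, the reported partners of NDX, and the other 11 repressors were not among the listed genes and not analysed here.

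Of 8 genes for processing and sorting of globulins, 3 were listed, all of them vacuolar processing enzymes, and they did not move together. BETA-VPE (AT1G62710), the enzyme chiefly responsible for cutting cruciferins in the seed, measured 9.47 and 9.82 FPKM in ndx1-4, against 18.05 and 17.62 FPKM in Col-0, and fell 1.85-fold (limma adjusted p 1.70e-05). DELTA-VPE (AT3G20210), which acts in the seed coat, rose 2.50-fold, at 4.60 and 4.21 FPKM in ndx1-4 and 1.89 and 1.64 FPKM in Col-0 (limma adjusted p 7.54e-05). GAMMA-VPE (AT4G32940), a vegetative form, averaged 1.16-fold lower (limma adjusted p 0.000657). Its call was lost after median-ratio scaling (limma adjusted p 0.651) and with adjustment over all annotated genes (0.0126). It was also lost with any 1 library left out (difference -0.222 to -0.19).

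Markers of late seed development and of green seedling tissue were read beside these results. Of 12 genes for late embryogenesis and desiccation proteins, 3 were listed, and all 3 were higher in ndx1-4, opposite to the globulins. They summed to 74.7 and 79.2 FPKM in ndx1-4, against 34.5 and 35.1 FPKM in Col-0, and none was at 0 in a library. The other 9 were not analysed here. EM1 (AT3G51810), a late embryogenesis abundant protein of the dry seed, rose 17.8-fold with a limma adjusted p of 3.56e-08, and AT3G15670 rose 2.88-fold. RAB18 (AT5G66400), a dehydrin induced by abscisic acid, was 1.29-fold higher, and its call was lost with any 1 library left out (limma adjusted p 0.0107 to 0.0233). Of 10 genes for green tissue 2 were listed, RBCS3B and LHB1B1. LHB1B1 (AT2G34430), a light-harvesting protein, measured 3394.00 and 3479.86 FPKM in ndx1-4, against 4155.11 and 4192.28 FPKM in Col-0. RBCS3B (AT5G38410), a small subunit of Rubisco, measured 4107.73 and 4371.96 FPKM in ndx1-4, against 4699.31 and 4738.10 FPKM in Col-0. The direction of RBCS3B flipped after median-ratio scaling (limma adjusted p 0.363). Its call was lost without the variance trend (limma adjusted p 0.0289) and with adjustment over all annotated genes (0.0545). It was also lost with any 1 library left out (difference -0.2 to -0.11). The call of LHB1B1 was lost after scaling and without either Col-0 library (limma adjusted p 0.0188, 0.0134 and 0.0144). Both were abundant in every library, and the part that late seed material had in the globulin levels was not tested.

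**Figure D5:**
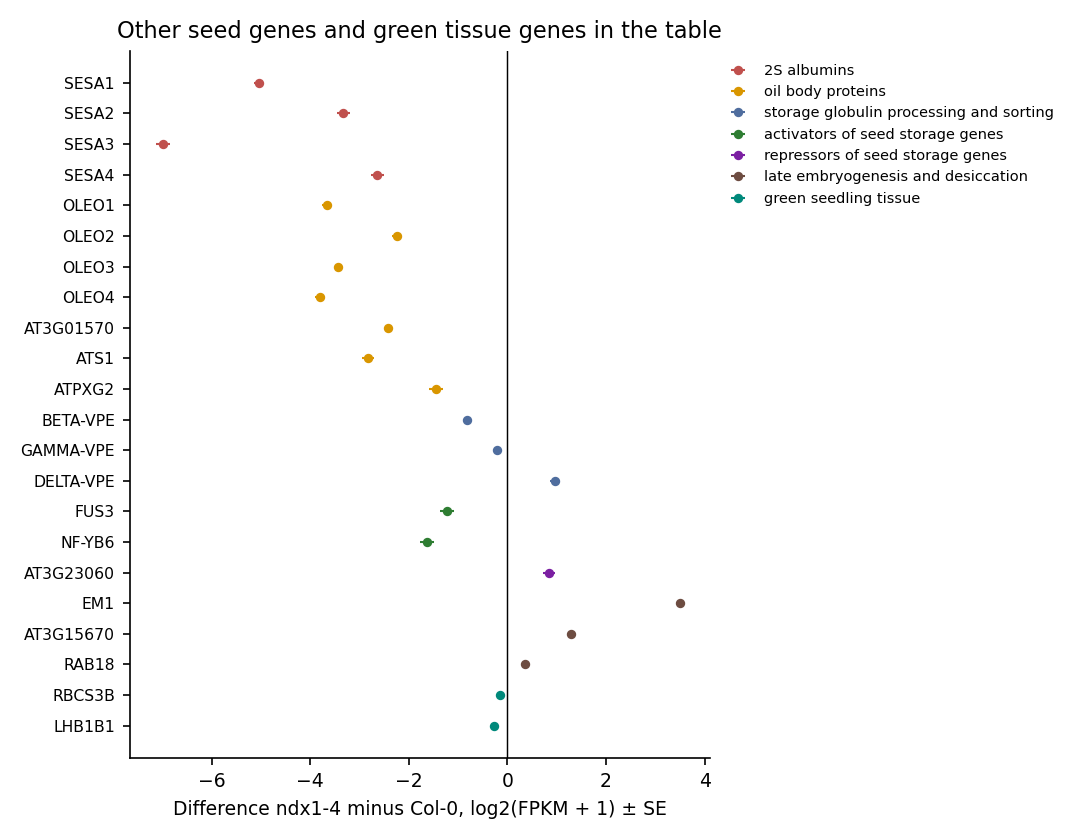
Limma difference between ndx1-4 and Col-0 on the log2(FPKM + 1) scale (horizontal axis, bars are SE) for the 22 listed genes of 7 gene lists, coloured by list. All 2S albumins, oil body proteins and both activators lie below 0, whereas the 3 late embryogenesis genes, AT3G23060 and DELTA-VPE lie above it.

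Listed genes outside the globulins were ranked by likeness of profile to each globulin, as Euclidean distance over the 4 libraries on the log2(FPKM + 1) scale. The globulins themselves were left out as candidates, so none could be named as nearest to another. CRU2 was nearest to AT1G47540 (distance 0.354), a knottin-like protein gene at 0.20 and 0 FPKM in ndx1-4 and 57.94 and 69.36 FPKM in Col-0, and then to BAM5 (1.15). AT2G28490 was nearest to AT1G17830 (0.264) and then to CYP71A27 (0.379). AT1G03890 was nearest to AT2G01422 (0.411) and AT5G17340 (0.425). PAP85 and AT4G36700 shared their nearest gene outside the globulins, AT5G09570 (0.344 and 0.430). They came next to AT2G36970 (0.458) and AT5G26220 (0.485), and their distance to each other was not part of the search. CRU3 and CRA1 had no close match outside the globulins. Their nearest distances were 0.982 to AT2G08820 and 1.74 to SPX1, followed by AT5G20790 (1.33) and AT5G53048 (1.82).

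Genes around the globulin loci were listed at about the rate of all genes. Of 38 annotated genes within 10 kb of a listed globulin gene, besides the globulins themselves, 3 (7.89%) were in the table, beside 5.21% of all 38095 annotated genes. The neighbours were drawn from the 33056 annotated genes on the nuclear chromosomes, a smaller set, so both shares have unlike bases. Downstream of PAP85, AT3G22620 measured 50.24 and 53.64 FPKM in ndx1-4, against 40.97 and 37.91 FPKM in Col-0. Near CRU2, GRXS13 (AT1G03850), a glutaredoxin, measured 35.00 and 35.48 FPKM in ndx1-4, against 24.35 and 22.76 FPKM in Col-0. Near CRA1, FLA13 (AT5G44130), a fasciclin-like arabinogalactan protein, measured 15.87 and 17.05 FPKM in ndx1-4, against 25.72 and 24.31 FPKM in Col-0. Of these 3 neighbours, FLA13 alone lay lower in ndx1-4. Next to AT2G18540, the globulin gene without a value, AT2G18530 was listed at 0 in both ndx1-4 libraries, against 1.90 and 2.02 FPKM in Col-0.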

How the data were processed

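The authors quantified reads with Salmon, correcting for GC bias, against Araport11 transcripts, tested the genotypes with DESeq2 and deposited the genes past an adjusted p of 0.01. The deposited values are FPKM per library, rounded to 0.01. Commas within numbers were removed. The deposited log2 fold changes and adjusted p-values are the authors' own comparison and were not used, nor was the table of transposable elements. Counts were not used here, and depth is unknown, so no counting interval is given.

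All 4 libraries entered limma 3.58.1 (R 4.3.3) on log2(FPKM + 1) with a variance trend, ndx1-4 minus Col-0, without covariates, adjusted by the Benjamini-Hochberg method over the 1984 listed genes at a threshold of 0.01. This scale understates the change of low genes. The script was tested on simulated data. All 1984 genes had equal coordinates in RefSeq TAIR10.1. Proteins were translated from the longest coding isoform, searched with BLAST+ 2.17.0 (expectation 1e-10) and aligned globally with Biopython 1.88 (BLOSUM62). Motifs were sought on both strands.

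The globulin genes, gene lists and motifs were chosen with earlier results of these data known. Named genes were the globulins, the 2 listed non-globulin genes nearest to each by profile, NDX, protein relatives and listed neighbours. From each list, up to 3 genes with the largest differences were named as well. The neighbours were added after their values were seen. Groups and replicate numbers came from the sample titles. Alternatives were a pseudocount of 0.1, a mean FPKM of at least 1, no variance trend, median-ratio scaling, adjustment over all 38095 annotated genes, a replicate block and leaving out each library.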

Additional observations from a re-analysis of the deposited data

How the results depend on the processing

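All 7 globulin genes were lower in ndx1-4 without overlap of libraries under median-ratio scaling. Leaving out a library cannot create overlap, and a minimum of 1 FPKM changes no value, so those settings could not test this. The log2 ratio of their summed FPKM, -3.67, was -3.47 after median-ratio scaling and -4.32 without CRA1, and -3.78 to -3.56 with a library left out. Single globulin genes kept their direction in all 56 alternatives. As no libraries overlapped, only median-ratio scaling could have changed a direction, and nothing is read from this count. Of the 56 alternatives, 10 moved a difference by more than the replicate spread, for CRU2 to -8.83 with a pseudocount of 0.1. Median-ratio scaling shifts the log2 difference of abundant genes up by 0.19 and that of genes low in either genotype by less, on the log2(FPKM + 1) scale, and gave 612 genes lower and 869 higher, 58.7% higher in place of 43.5%. It puts the median log2(FPKM + 1) difference of a list of called genes at -0.0072. The balance of calls depends on that centring, and nothing is read from it. Scaling turned RBCS3B to 0.037. With a library left out, 422 to 469 genes were lower (469 and 437 without ndx1-4 replicates 1 and 2, 422 and 447 without Col-0 replicates 1 and 2) and 336 to 378 higher (343 and 336, then 378 and 368), with fewer samples in the fit. For NDX, AT1G07750 and the listed genes of the other gene lists, 209 alternatives kept the call, 28 lost it and 1 reversed. The genes nearest by profile and the neighbours were not put through the alternatives. Replicate numbers did not pair the libraries (correlation of deviations 0.024). With a replicate block 1107 genes were lower and 851 higher, and 1953 of the 1963 calls were shared. DESeq2 was not run, because the table used here holds FPKM. Without depth, a level of 0 has no limit.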
